A study of Mus musculus with 6 samples.

Results

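The day 13 libraries of a miR-155 knockout (KO) and a wild-type (WT) group of mice with experimental autoimmune encephalomyelitis (EAE) were compared across genes, one class of immune cell at a time. EAE is an autoimmune inflammation of the central nervous system that is induced in mice as a model of multiple sclerosis. The 2 libraries were chosen by their labels, and barcodes were kept if they had 200 or more genes and no more than 10% of their counts from mitochondrial genes. This gave 3634 WT and 3099 KO cells, 6733 of the 20007 cells kept from all 6 libraries of the series. All mice were C57BL/6 and were taken 13 days after EAE was induced. The groups differed by genotype, WT or miR-155KO. The labels do not say which sequence the KO allele removes, nor give age or sex. Live CD45+ DAPI-negative cells were sorted from 5 mice per group, with the tissue labelled as brain and a protocol that names brain and spinal cord. Each group was 1 droplet library of transcript 3' ends, so no difference below has a replicate check, no test could be run, and mouse, preparation and genotype cannot be told apart. Intervals are 95% intervals and cover counting error only.

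MicroRNAs are short RNAs that guide Argonaute proteins to messenger RNAs, mostly through pairing of the seed at their 5' end with sites in the 3' untranslated region, and lower the level or translation of those messages. miR-155 is processed from the transcript of its host gene Mir155hg and is induced in activated lymphocytes, dendritic cells and macrophages. Among its reported targets are Inpp5d, which encodes the phosphatase SHIP1, Socs1, a feedback inhibitor of cytokine receptors, and Cebpb, a transcription factor of myeloid cells. Mice without miR-155 are known to develop milder EAE, with weaker inflammatory T cell responses.

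The mature microRNA is shown first, with its seed (bases 2 to 8) in capitals, because the match to this seed is used below to sort the measured genes. Its sequence is that of RefSeq on GRCm38.p6, at chr16:84714143-84714165 on the plus strand. The 3 target sites below it are from the 3' untranslated regions of GENCODE M21 on GRCm38, with the 8 bases that pair with the seed and an A opposite its first base (AGCATTAA) in capitals. These 3 were picked by hand among the reported targets that have a full match and were measured in all 8 classes analysed. Others, such as Spi1, Jarid2, Tab2 and Hbp1, also met both conditions.
mmu-miR-155-5p: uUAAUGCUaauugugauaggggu
Inpp5d, bases 515 to 522 of 1184: tgtttttaaaaAGCATTAAagaaaaccatc
Socs1, bases 20 to 27 of 1993: cgctgtgccgcAGCATTAAgtgggggcgcc
Cebpb, bases 454 to 461 of 506: tttccgtttcgAGCATTAAagtgaagacat

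The WT library held 20298806 unique molecular identifiers (UMIs, each standing for 1 captured transcript) and the KO library 18066205, with medians of 4368.5 and 4341 UMIs per barcode. The libraries shared 17 barcode sequences. Cells were placed in classes by a score of the 4 best of a class's marker genes, and each class carries the ending -like. In the 8 classes analysed across genes every marker of the class was at least 2-fold above the rest of the cells, except 1 of 12 for monocytes and macrophages, and the 10 leading genes held no marker of a different class. Barcodes that scored for 2 classes were left out of every class. They were 10.8% of WT and 13.3% of KO barcodes, and those scoring as T and microglia had median UMI counts of 6690 and 6928, against 3590 and 3272 in T-like cells.

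Mir155hg was read first, since it checks the labels. It had 45 UMIs in the WT library (2.22 CPM, counts per 1000000 UMIs), and 0 in the KO library, where a count of 0 allows up to 0.166 CPM. In WT it was found in conventional dendritic-like cells (9 UMIs, 9.69 CPM), T-like cells (10 UMIs, 4.18 CPM) and monocyte/macrophage-like cells (8 UMIs, 1.59 CPM). B-like cells had 2 UMIs and NK-like cells 1. In neutrophil-like and microglia-like cells it was not detected (0 UMIs), which allows up to 1.12 and 0.912 CPM. The plasmacytoid dendritic-like and progenitor-like classes also had 0, where their depth allows up to 7.59 and 2.64 CPM. The KO label was thus matched by the host transcript, and the class levels in WT rest on 10 UMIs or fewer each.

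The makeup of the sorted cells differed between the libraries. Microglia, which are the brain's own macrophages, and neutrophils took smaller shares in KO, while dendritic cells of both kinds, B cells and NK cells took larger ones. Microglia-like cells were 27.0% of WT and 15.0% of KO cells, a KO to WT ratio of 0.556 (0.503 to 0.614). Neutrophil-like cells, short-lived granulocytes that enter early, were 11.97% and 7.45%, a ratio of 0.623 (0.535 to 0.725). Plasmacytoid dendritic-like cells, the main producers of type I interferon, were 2.31% and 5.65%, a ratio of 2.44 (1.89 to 3.15). B-like cells were 8.50% and 14.9%, a ratio of 1.75 (1.53 to 2.00). The intervals of these 4 ratios exclude 1, as far as counting error goes.

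The other classes with enough cells were as follows. Conventional dendritic-like cells, the specialised antigen-presenting cells, were 3.22% of WT and 4.84% of KO cells (ratio 1.503, 1.19 to 1.91). Monocyte/macrophage-like cells, which enter from the blood, were 20.2% and 23.7% (1.17, 1.07 to 1.28), and T-like cells 12.7% and 10.2% (0.804, 0.702 to 0.920). Granulocyte/monocyte progenitor-like cells, marked by the primary granule genes Elane, Mpo, Prtn3, Ctsg and Ms4a3, were 64 WT and 77 KO cells (1.41, 1.02 to 1.959). NK-like cells were 33 and 54 cells (1.92, 1.25 to 2.95).

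These shares depend on one another, and microglia carry less CD45 than blood cells, so the sort gate can set them. Taken as shares of the gated cells other than microglia, the monocyte/macrophage-like ratio was 1.02 and the conventional dendritic-like ratio 1.31. On that base the ratios were 2.13 for plasmacytoid dendritic-like, 1.52 for B-like, 0.699 for T-like and 0.542 for neutrophil-like cells. These 4 ratios kept their side of 1. The mixed barcodes moved too: those scoring as T and microglia were 5.26% of WT and 4.07% of KO barcodes, and those scoring as T and monocyte/macrophage 1.98% and 3.55%.

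**Figure D1:**
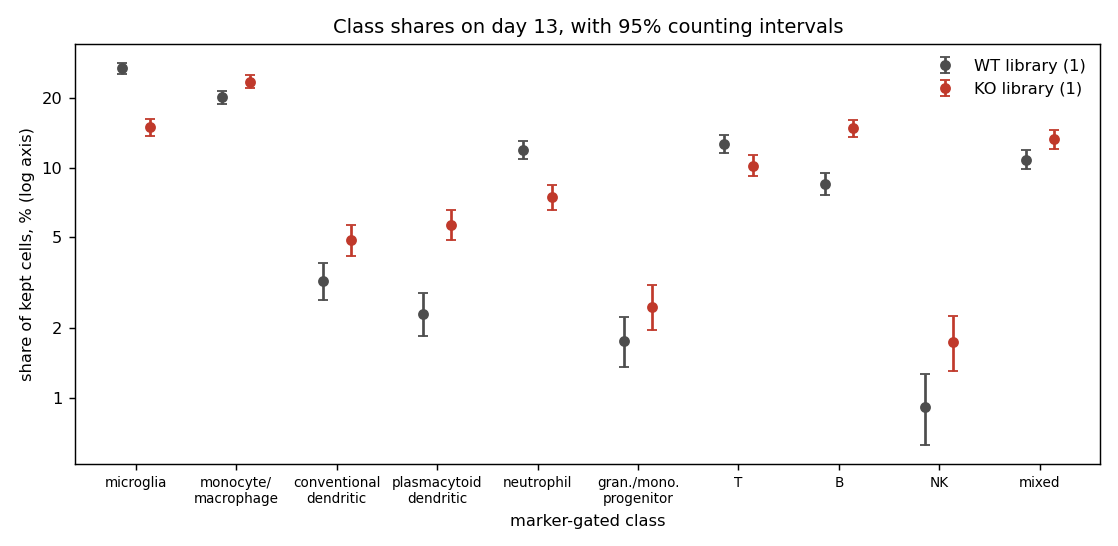
Share of each marker-gated class in the WT and the KO library of day 13, in percent of kept cells, with exact 95% binomial intervals as bars. The microglia-like share was 27.0% in WT and 15.0% in KO, and the B-like share 8.50% and 14.9%.

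Gene levels were compared as CPM, here the UMIs of a gene per 1000000 UMIs of its class, in the 8 classes with at least 50 cells in both libraries. A gene was counted as measured with a mean of 10 CPM or more and 20 UMIs or more, and as higher or lower in KO at a 1.5-fold difference, with a pseudocount of 1 CPM. Monocyte/macrophage-like cells, the class with most UMIs, had the fewest genes past this fold in either direction (2.21% of 6510) and a median counting SD of 0.155 on the log2 scale. Plasmacytoid dendritic-like cells had the most (19.6% of 5636) and a counting SD of 0.411. Between them lay microglia-like (5.42%), T-like (8.98%), neutrophil-like (12%), progenitor-like (12.3%), B-like (14.4%) and conventional dendritic-like cells (17.7%). The threshold is 0.585 on the same scale. The share of all genes past the fold is given once for each class, and the counts of its lists are to be read against it.

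Dusp1 and Fos were higher in KO in all 8 classes, the only 2 of 3742 genes measured in all of them for which this held. Dusp1 encodes a phosphatase that switches off MAP kinases, and Fos a subunit of the transcription factor AP-1. Both are immediate early genes, which respond within minutes to stimulation and also to the handling of tissue. Dusp1 stood at 61.1 CPM in WT and 196 CPM in KO microglia-like cells, and at 11.1 and 55.4 CPM in B-like cells. Its KO to WT ratios were lowest in neutrophil-like cells, at 1.57 (1.34 to 1.84), and highest in B-like cells, at 4.99 (2.49 to 11.3). Fos stood at 217 CPM in WT and 590.4 CPM in KO microglia-like cells, and at 57.7 and 156 CPM in T-like cells. Its log2 ratios ran from 0.71 in neutrophil-like to 1.47 in progenitor-like cells.

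The wider list of immediate early and dissociation genes had a median above that of all genes in every class. In microglia-like cells 11 of 16 measured members were higher and 0 lower, against 2.92% and 2.5% of all genes of the class, with a median log2 ratio of 0.70. In the other classes the median lay between 0.19 in progenitor-like and 0.48 in conventional dendritic-like cells, with 0 lower in each. The members higher were 4 of 16 in monocyte/macrophage-like (all genes 1.61%), 5 of 16 in conventional dendritic-like (8.86%), 6 of 13 in plasmacytoid dendritic-like (10.9%) and 2 of 12 in neutrophil-like cells (7.76%). They were 5 of 13 in progenitor-like (6.65%), 2 of 14 in T-like (3.29%) and 4 of 13 in B-like cells (5.67%). Dusp1 and Fos are on this list and are among the higher members in every class. In neutrophil-like and T-like cells they are the only higher ones. The other members differed by class. Klf2, a transcription factor of quiescence, was at 87.8 and 242 CPM in microglia-like cells but at 429 and 339.9 CPM in T-like cells. Whether the libraries differed in handling is not given in the labels, and its part in these values was not tested.

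**Figure D2:**
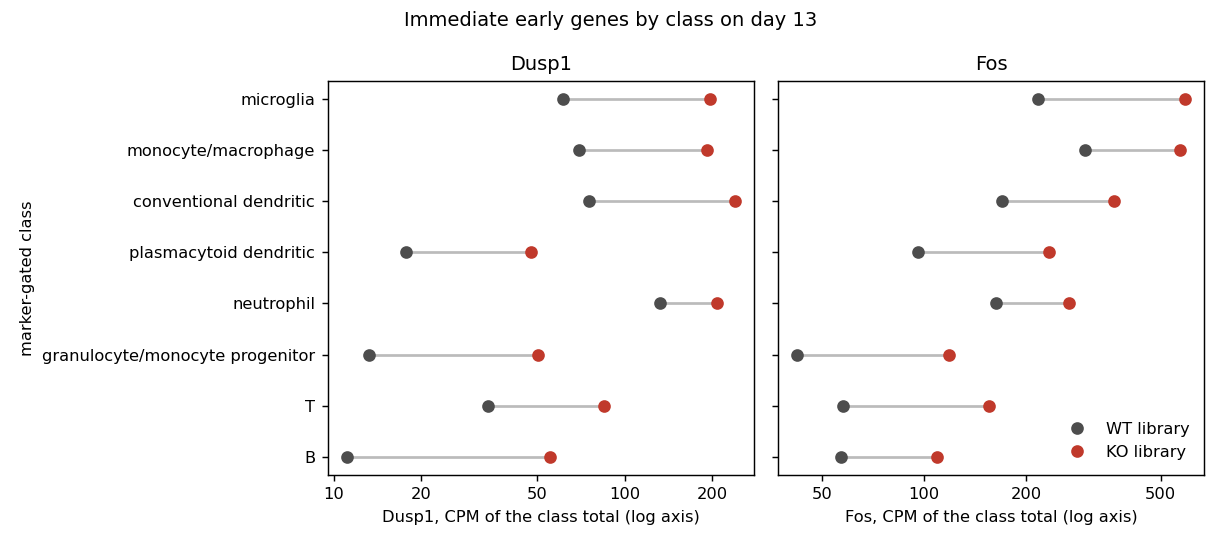
Dusp1 and Fos in CPM of the class total (log axis) in WT (grey) and KO (red) for each class of day 13. The KO point lies to the right in all 8 classes for both genes, for example at 196 against 61.1 CPM for Dusp1 in microglia-like cells.

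Genes of B cells and of neutrophils also differed in several classes. The B cell genes Cd79a and Igkc, and Ly6d, were higher in KO in 6 classes each. When cells were clustered, Ly6d was a leading gene of the plasmacytoid dendritic cluster as well as of B cell clusters. The neutrophil granule genes Camp, Ltf and Ngp were lower in 6 classes, one of them the progenitor-like class, which expresses them. Summed B cell markers were at 17.6 CPM in WT and 122 CPM in KO neutrophil-like cells, a ratio of 6.93 (5.00 to 9.78), with all 9 markers detected. They were at 32.9 and 144 CPM in monocyte/macrophage-like cells (4.36) and at 82.7 and 179 CPM in T-like cells (2.16). Neutrophil markers were at 147 CPM in WT and 65.4 CPM in KO T-like cells, a ratio of 0.445 (0.352 to 0.558), but had ratios of 1.01 (0.960 to 1.06) in monocyte/macrophage-like and 1.08 (0.928 to 1.26) in microglia-like cells. The B-like share of the libraries had a ratio of 1.75 and the neutrophil-like share one of 0.623. The part of such transcripts from other cells in the lists below was not tested.

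Beyond these, Hist1h2ap was higher in 7 classes and lower in conventional dendritic-like cells. Cxcl2, a chemokine that attracts neutrophils, was measured in 6 classes and higher in 5 of them.

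**Figure D3:**
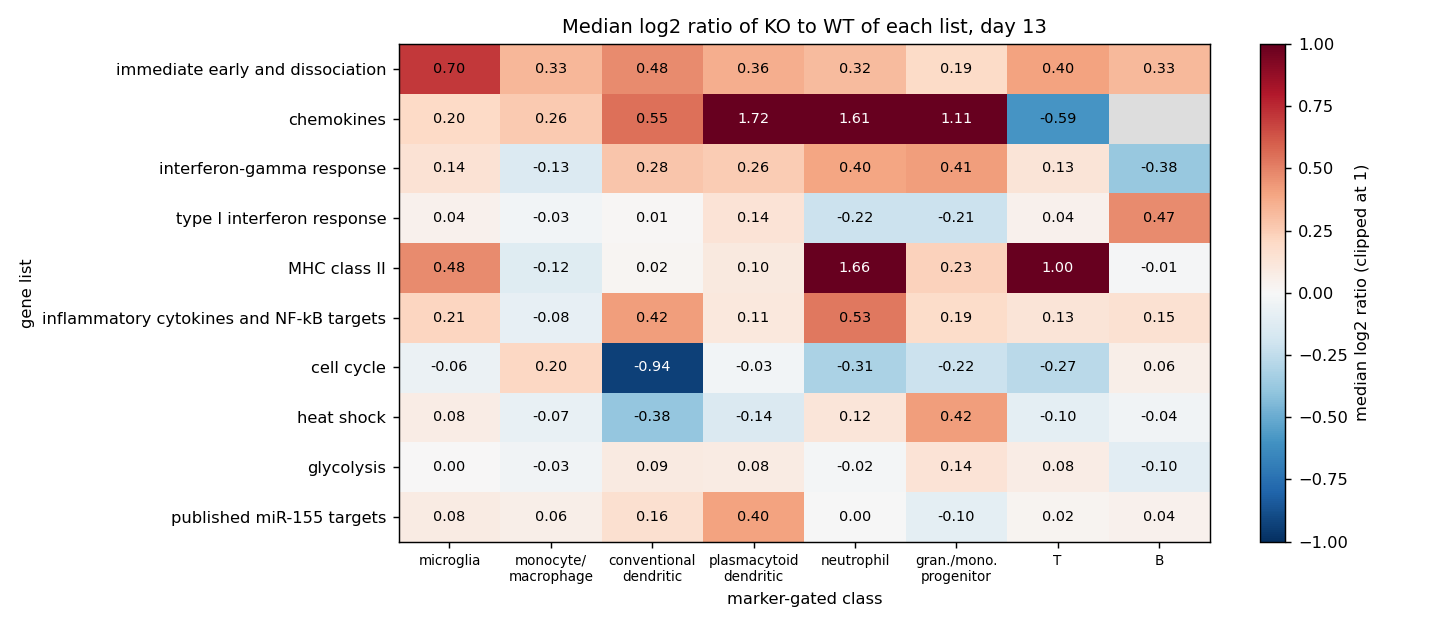
Median log2 ratio of KO to WT over the measured members of 10 gene lists (rows) in 8 classes (columns), red for higher in KO and blue for lower, with colours clipped at 1; grey marks a list with fewer than 5 measured members. The immediate early list is red in every column, while the chemokine list is at 1.61 in neutrophil-like and at -0.59 in T-like cells.

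In microglia-like cells (981 WT, 465 KO), the MHC class II genes had a median above that of all genes, with few of them past 1.5-fold. The MHC class II genes encode the molecules that show peptides to CD4 T cells, and all 10 had a ratio above 1. Only Ciita, the master regulator of the group, and H2-DMb2 passed 1.5-fold, and the median was 0.48 where that of all genes was 0.02. Ciita was at 24.6 CPM in WT and 38.6 CPM in KO, and H2-Aa at 2213 and 3073 CPM. H2-DMb2 was at 27.4 and 59.2 CPM (2.16-fold, 1.60 to 2.92). Summed B cell markers were at 59.3 and 131 CPM in the same cells. The MHC class I and immunoproteasome list had 0 of 15 past the fold (median -0.05).

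The interferon-gamma list had 3 of 18 members higher and 0 lower (median 0.14), with the GTPase gene Gbp2 at 589 and 901 CPM. The type I interferon list had 0 of 17 past the fold in either direction (median 0.04). Genes of resting microglia outside the gate also had 0 of 19 past the fold, with a median of -0.15. The lowest of these was Tgfbr1, a receptor through which TGF-beta keeps microglia in their resting state, at 338 and 235 CPM (log2 -0.53).

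Of 20 lipid and lysosome genes, 2 were lower and 0 higher (median -0.18). Apoe, the lipid carrier that microglia express on activation, was at 10718.5 CPM in WT and 5983 CPM in KO, 1.79-fold (1.75 to 1.83) higher in WT. Lpl, a lipase of phagocytes that take up myelin, was at 34.3 and 12.5 CPM, 2.76-fold (1.70 to 4.69) higher in WT. Complement and Fc receptor genes had 0 of 12 past the fold (median -0.08), with C5ar1 at 163 and 126 CPM.

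Chemokines went both ways, with 4 of 14 higher and 2 lower. The monocyte attractant Ccl7 was at 133 and 352 CPM (2.65-fold, 2.33 to 3.01), Ccl2 at 513 and 790.3 CPM and Ccl3 at 183 and 323 CPM. Ccl5, which draws T cells, was at 745 and 465 CPM. Cxcl13, a B cell attractant, was at 33.7 and 10.6 CPM, but 69 of its 111 WT UMIs came from 1 cell, and without the top cell of each library its log2 ratio was -0.60 in place of -1.58. The histone demethylase gene Kdm6b, at 11.9 and 32.4 CPM, and Fosb, at 13.4 and 34.9 CPM, were also among the highest in KO. Ptprc, which encodes the sorted antigen CD45, was at 243 and 246 CPM.

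Monocyte/macrophage-like cells (734 WT, 733 KO) held the most even pair of libraries, and differed in few genes: 1.61% were higher and 0.599% lower in KO. Chemokines made up much of the named difference, with 5 of 14 higher and 1 lower and a median of 0.26 against -0.02 for all genes. Cxcl2 was at 45.2 CPM in WT and 145 CPM in KO, a ratio of 3.21 (2.76 to 3.75), in 78 and 181 cells with a UMI. The monocyte attractants Ccl2 and Ccl12 were at 90.5 and 144 CPM and at 88.9 and 147 CPM. Ccl3 and Ccl4, chemokines of the CC family, were at 25.1 and 57.1 CPM and at 38.1 and 88.6 CPM. The chemokines that interferon-gamma induces, Cxcl9 and Cxcl10, were not among them, at 374 and 333 CPM and at 557 and 502 CPM.

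Spp1, which encodes the secreted phosphoprotein osteopontin, was at 40.9 and 129 CPM (3.15-fold, 2.69 to 3.71), with 95 of 631 KO UMIs in 1 cell and a log2 ratio of 1.58 without the top cells. Rgs1, a brake on chemokine receptor signalling, was at 21.5 and 48.0 CPM. Named for their lower level in KO were 2 genes. Iigp1, an interferon-inducible GTPase, was at 426 and 258 CPM, 1.65-fold (1.54 to 1.77) higher in WT. Ccl8 was at 52.4 and 21.0 CPM, but 147 of 263 WT UMIs came from 1 cell, with a log2 ratio of -1.13 without the top cells.

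Most programs of inflammatory macrophages were level in these cells. The interferon-gamma list had 0 of 18 higher and 1 lower (median -0.13), and the type I interferon list 0 of 18 past the fold (-0.03). Genes of macrophage metabolism had 0 of 10 past the fold (0.09). Arg1, which breaks down arginine, was at 186 and 161 CPM, and Irg1, which makes itaconate, at 156 and 141 CPM. Genes of alternative activation (0 of 7, median -0.02), glycolysis (0 of 15, -0.03) and NF-kB targets (1 of 14 higher, -0.08) were also level, with Il1b at 379.5 CPM in WT and 328 CPM in KO. Of the MHC class II genes 3 of 10 were higher, H2-DMb2, H2-Oa and H2-Ob, which B cells also express, while Cd74 was at 19542 and 17354 CPM. T cell markers, at 133 and 226 CPM, were higher in the same cells.

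Conventional dendritic-like cells (117 WT, 150 KO) had lower cell cycle genes and higher maturation genes in KO. Here 8.86% of all genes were higher and 8.86% lower. Of 17 measured cell cycle genes, 10 were lower and 2 higher, with a median of -0.94 against -0.01 for all genes. With classes taken from clusters of cells the median was -0.22. There, a cluster led by Stmn1, Tuba1b and Tubb5 (127 WT, 61 KO cells) was called mixed and left out of every class. Stmn1 and Tubb5 are on the cell cycle list, and the part of this in the median was not tested. Top2a, which untangles replicated DNA, was at 70.0 CPM in WT and 17.3 CPM in KO (4.05-fold higher in WT, 2.31 to 7.49). Rrm2, a subunit of the enzyme that makes deoxynucleotides, had 63 WT and 4 KO UMIs, found in 11 and 3 cells. The kinetochore gene Spc24 and the histone chaperone gene Asf1b were 5.28-fold (2.66 to 11.6) and 4.54-fold (2.17 to 10.6) higher in WT. These genes thus rest on few cells, with Top2a found in 14 WT and 6 KO cells.

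Maturation and costimulation genes had 5 of 18 higher and 0 lower, with a median of 0.51 (0.18 with classes from clusters). Relb, an NF-kB subunit of mature dendritic cells, was at 142 and 273 CPM, Ccr7, which guides them to lymph nodes, at 703 and 1181 CPM, and Cd83 at 234 and 385 CPM. The costimulators Cd86, at 171 and 195 CPM, and Cd80, at 34.4 and 42.2 CPM, stayed within the fold. Among chemokines, 4 of 11 were higher and 0 lower (median 0.55). Cxcl10 led them at 33.4 and 187 CPM (5.60-fold, 3.81 to 8.50), from 12 and 17 cells. NF-kB targets had 6 of 14 higher and 0 lower (median 0.42), among them the inhibitor gene Nfkbia at 384 and 693 CPM. MHC class II genes had 0 of 10 past the fold (0.02).

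The class is a mix of subsets, and their proportions differed. Cells led by Xcr1 and Clec9a, markers of cross-presenting dendritic cells, were 47.9% of the WT and 32.7% of the KO class. Cells led by Cd209a and Clec10a, markers of type 2 and monocyte-derived dendritic cells, were 31 of 117 WT and 45 of 150 KO cells. Cells led by Fscn1 and Ccl22, markers of mature migratory cells, were 25.6% and 37.3%. In the Xcr1-led cells 12 of 16 cell cycle genes were lower and 1 higher (median -0.95), where 11.6% of all genes were lower. In the Cd209a-led and Fscn1-led cells only 3 and 2 of the list were measured, with medians of 0.93 and 0.07, so the list could not be compared between subsets.

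The maturation list had medians of 0.14 in the Xcr1-led, 0.75 in the Cd209a-led and -0.07 in the Fscn1-led cells. In the Cd209a-led cells (31 WT, 45 KO) chemokines (6 of 8 higher, median 1.17), NF-kB targets (6 of 10, 0.98) and interferon-gamma response genes (9 of 16, 0.64) were higher, with 0 lower in each list, where 12.1% of all genes were higher. Cxcl10 had 4 UMIs in WT and 129 in KO there, a ratio of 24.4 (9.31 to 90.9). Cd40, the receptor for T cell help, was at 33.7 and 127 CPM. These subsets were set after the values of the class were seen.

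Other genes named in the class were Ear2, a ribonuclease gene, at 60.3 and 9.73 CPM (6.20-fold higher in WT, 3.04 to 14.2), and Ccl4, at 15.1 and 57.3 CPM. Fez2 was at 9.69 and 32.4 CPM. Microglia markers in these cells were at 436 and 310.2 CPM, a ratio of 0.712 (0.610 to 0.830). B cell markers were at 21.5 and 103 CPM, a ratio of 4.77 (2.92 to 8.16), with 0 of 9 at 0 and 3 of 3 measured ones higher. Their part in the lists was not tested.

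Plasmacytoid dendritic-like cells (84 WT, 175 KO) were the shallowest class, with 395223 WT and 798904 KO UMIs, and 10.9% of genes were higher and 8.64% lower. Their type I interferon genes had 2 of 13 higher and 0 lower, with a median of 0.14 against -0.02 for all genes. Isg15 was at 218 and 239 CPM and Irf7, the regulator through which these cells make interferon, at 671 and 722 CPM. Mx1 had 2 WT and 21 KO UMIs, a ratio of 5.19 (1.27 to 45.7). Among interferon-gamma response genes 5 of 14 were higher and 1 lower, with Gbp4 at 20.2 and 65.1 CPM (3.22-fold, 1.52 to 7.84) and Iigp1 at 154 and 83.9 CPM.

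The factors that define the lineage stayed within the fold. Tcf4 was at 961 and 809.9 CPM, Irf8 at 4929 and 4611 CPM and Spib at 344 and 245 CPM. Id2 and Klf4, which conventional dendritic and monocytic cells use, were higher, with Id2 at 38.0 and 83.9 CPM. Klf4 had 0 WT and 22 KO UMIs, the latter in 16 cells, where 0 counts allow up to 7.59 CPM in WT. The named genes lower in KO were Cnot11, a subunit of a deadenylase complex, at 63.3 and 20.03 CPM (3.16-fold higher in WT, 1.62 to 6.33), Wfs1 at 98.7 and 35.0 CPM, Lrp8 at 104 and 42.6 CPM, and Cd180, a Toll-like receptor relative, at 250.5 and 118 CPM. Those higher were Fam46a, with 2 WT and 29 KO UMIs, Mzt1, Gbp4 and Grap, with wide counting intervals (1.57 to 7.32 for Grap). Of 8 measured chemokines 6 were higher and 0 lower (median 1.72), with Ccl5 at 48.1 and 215 CPM and Ccl6 at 4 and 40 UMIs. Microglia markers had a ratio of 0.591 (0.478 to 0.732, with 4 of 12 at 0) and B cell markers 1.37 (1.15 to 1.63) in this class. Transcripts of monocytes were higher in the same cells: Lyz2, the lysozyme gene, was at 240.4 and 1167 CPM, Chil3 at 73.4 and 357 CPM, Saa3 at 12.7 and 136 CPM and Tgfbi at 2 and 44 UMIs. The summed monocyte/macrophage markers were at 9832 CPM in WT and 8683 CPM in KO, a ratio of 0.883 (0.849 to 0.919). Of 5 measured ones 2 were higher and 0 lower, with 0 of 12 at 0. One of these markers, Plac8, is a leading gene of the plasmacytoid dendritic cluster itself, so their sum does not measure monocyte transcripts alone. The part of these transcripts in the Id2, Klf4 and chemokine values was not tested.

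Neutrophil-like cells (435 WT, 231 KO) showed level granule genes, higher activation genes and lower cell cycle genes in KO. Of all genes 7.76% were higher and 4.25% lower, or 398 and 218 genes. With a stricter gate the split was 233 and 331, with the excess on the other side. The granule list had 0 of 12 past the fold (median -0.21, all genes -0.01), with S100a8, a subunit of calprotectin, at 134324 and 139306 CPM and Ngp at 51793 and 43009.7 CPM. Of 18 cell cycle genes 6 were lower and 0 higher (-0.31), with Ccnb1, the cyclin of mitosis, at 68.6 and 30.9 CPM (2.22-fold higher in WT, 1.60 to 3.15) and Birc5 at 151 and 87.8 CPM. Lower too were BC100530, Stfa1 and Stfa2, members of the stefin family of protease inhibitors, at 979.7 and 434, 664 and 339.5, and 369.8 and 195 CPM. Stefin genes are near-identical copies, so how their reads were shared out is uncertain.

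Activation genes had 4 of 14 higher and 0 lower (median 0.41). Cxcl2 was at 68.2 and 228 CPM (3.34-fold, 2.78 to 4.02) in 88 and 85 cells with a UMI, and Il1b at 86.9 and 132 CPM, with 43 of 193 KO UMIs in 1 cell. Without the top cells the log2 ratio of Il1b was 0.36 in place of 0.60, which is within the fold. Osm, a cytokine of the interleukin-6 family, was at 46.8 and 126 CPM, and Ly6i at 109.8 and 339 CPM. Ly6i is among the 10 leading genes of the monocyte/macrophage-like class. Of the interferon-gamma response 7 of 17 were higher and 0 lower (0.40), led by Irf8 and Cxcl9, while the type I list had 0 of 16 past the fold (-0.22). Of the former, Irf8 and Cxcl10 were at least 10-fold higher in another class. Banp and AI607873 were also among the highest, at 8.99 and 34.3 CPM and at 10.5 and 38.4 CPM.

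Chemokines (9 of 12 higher, 0 lower, median 1.61) and MHC class II genes (8 of 8 higher, 1.66) had the largest list medians of the class. Cd74 was at 717 and 2403 CPM and H2-Aa at 196 and 757 CPM, found in 161 of 435 WT and 101 of 231 KO cells. Some members rest on few cells: of 32 KO UMIs of Ccl17, 27 came from 1 cell, and of 28 of Ccl7, 20. Markers of other lineages moved in the same direction. B cell markers had a ratio of 6.93, conventional dendritic markers were at 31.9 and 76.1 CPM (2.39, 1.79 to 3.21, with 1 of 12 markers at 0), and red cell genes had 0 WT and 346 KO UMIs. Monocyte/macrophage markers, at 4939.7 CPM and 5246 CPM, had a ratio of 1.06 (1.03 to 1.09), with 6 of 10 measured markers higher. Their part in these 2 lists, in the interferon-gamma list and in Ly6i was not tested.

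Progenitor-like cells (64 WT, 77 KO) were the richest in RNA, with median UMI counts of 16080.5 and 17974. Some granule genes were lower and most chemokines higher in KO, where 6.65% of all genes were higher and 5.7% lower. Of 11 granule genes 4 were lower and 0 higher, and all 11 had a ratio below 1 (median -0.52, all genes 0.03). Camp, the cathelicidin gene, was at 13969 CPM in WT and 7436 CPM in KO, and Ngp at 19789 and 10939 CPM. Neutrophil markers summed to 2283 and 1545 CPM in the same cells. Cell cycle genes had 0 of 18 past the fold (-0.22), although the S phase gene Ccne2 was 2.34-fold (1.57 to 3.53) higher in WT and Tcf19 was at 66.8 and 26.7 CPM.

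Of 10 chemokines 9 were higher and 0 lower (median 1.11). Cxcl2 had 2 WT and 54 KO UMIs, the latter in 12 cells, a ratio of 22.8 (6.01 to 193). Cxcl10 was at 25.5 and 78.7 CPM and Ccl2 at 2.64 and 21.5 CPM. Ccl17 had 52 of its 53 KO UMIs in 1 cell. The interferon-gamma response had 6 of 16 higher and 0 lower (0.41). Heat shock genes had 3 of 10 higher and 0 lower (0.42), with the mitochondrial chaperone gene Hspe1 at 282 and 504 CPM. The zinc transporter gene Slc39a1 was at 9.67 and 34.9 CPM and Hmgn1, which encodes a nucleosome-binding protein, at 18.5 and 63.1 CPM. The named genes lower in KO included Dnajc14 and Rdh12, at 36.05 and 11.1 CPM and at 35.2 and 11.1 CPM.

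T-like cells (461 WT, 316 KO) had lower CD8 and cytotoxic genes in KO. Here 3.29% of all genes were higher and 5.69% lower, with a median of -0.06, or 236 and 409 genes. With ratios centred on that median the split was 290 and 319. Cd8a and Cd8b1, the chains of the co-receptor of cytotoxic T cells, were at 206 and 74.8 CPM and at 466 and 139 CPM, and Cd4 at 116 and 100.2 CPM. Cells with a UMI of either CD8 gene were 35.4% of WT (31.0 to 39.9) and 25.3% of KO T-like cells (20.6 to 30.5). After thinning every cell to 2000 UMIs, which left out 15 WT and 0 KO cells, the shares were 31.2% and 18.04%. In B-like cells, with median UMI counts of 2253 and 2516 against 3590 and 3272 in T-like cells, 0.647% and 0.651% had such a UMI. Cells with a Cd4 UMI were 36.0% and 30.7%, and 24.9% and 19.3% after thinning. Cells with a Foxp3 UMI, the factor of regulatory T cells, were 9.11% (6.65 to 12.1) and 12.3% (8.93 to 16.5), intervals that overlap.

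Of 11 cytotoxic granule genes 6 were lower and 0 higher, with a median of -0.78. Gzmk, which encodes granzyme K, was at 180.1 and 47.4 CPM, 3.80-fold (2.95 to 4.96) higher in WT, and was found in 131 and 20 cells. Ccl5 was at 5580.2 CPM in WT and 2894 CPM in KO. Gzmb was at 509 and 286 CPM, found in 30.6% of WT and 19.3% of KO cells, and in 25.1% and 12.3% after thinning. For Gzma, 563 of 701 KO UMIs came from 1 cell and 472 of 1609 WT UMIs from another. Its levels were 672 and 468 CPM, and its log2 ratio was -0.52 as found and -2.35 without those cells.

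Several of the largest T cell ratios rest on 1 cell. For 5 other granzyme genes 1 KO cell held nearly all UMIs: 202 of 202 for Gzmd, 111 of 111 for Gzme, 87 of 87 for Gzmg, 197 of 198 for Gzmf and 209 of 214 for Gzmc. Without the top cell of each library Gzmf and Gzmc had log2 ratios of -0.14 and -0.66 in place of a higher level in KO. One WT cell held 183 of 190 UMIs of Ccl1, and 1 held 321 of 500 UMIs of Ccl4, whose log2 ratio was -1.91 with it and -0.88 without. Ifng, the interferon-gamma gene, was at 126 and 61.4 CPM with 222 of 302 WT UMIs in 1 cell, and its log2 ratio turned from -1.03 to 0.21 without the top cells. Spp1 had 58 of 73 KO UMIs in 1 cell. Igfbp7, at 38.0 and 4.01 CPM (9.49-fold higher in WT, 4.197 to 26.5), and Wdr95, at 42.2 and 11.4 CPM, had log2 ratios of -3.41 and -1.90 without the top cells.

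The cytotoxic genes were then read by CD8 status. In cells with a CD8 UMI and none of Cd4 (147 WT, 76 KO), 9 of 11 were lower and 0 higher (median -1.01), where 18.8% of all genes were lower. Gzma was at 1583 and 63.0 CPM, Gzmb at 1078 and 572 CPM and Gzmk at 345 and 89.2 CPM in these cells. The WT cell with 472 of the 1609 WT UMIs of Gzma in T-like cells is one of them. In cells without a CD8 UMI (298 WT, 236 KO) 3 of 10 were higher and 1 lower (median 0.07), where 6.15% of all genes were higher and 7.38% lower, with Gzmb at 152 and 174 CPM, Nkg7 at 685 and 584 CPM and Gzma at 95.9 and 639 CPM. The KO cell with 563 UMIs of Gzma is among them, out of 676 UMIs in all. Part of the cells without a CD8 UMI had a Cd4 UMI (150 WT, 93 KO). In that part 4 of 10 cytotoxic genes were lower and 1 higher (median -0.49), where 11.5% of all genes were lower and 10.1% higher.

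**Figure D4:**
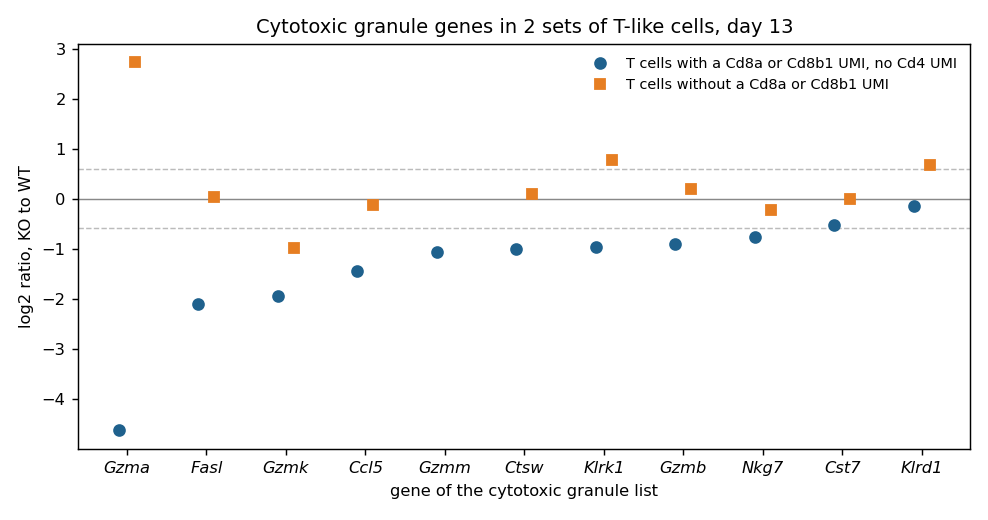
Log2 ratio of KO to WT for the cytotoxic granule genes in T-like cells of day 13, with a CD8 UMI and without one. In the cells with a CD8 UMI 9 of 11 genes lie below the lower dashed line (1.5-fold), while in the cells without one the median is 0.07.

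Within the same CD8 cells, genes of naive and recirculating T cells were higher, with 8 of 10 higher and 0 lower (median 1.01), where 7.99% of all genes were higher. Tcf7, a transcription factor of naive and memory T cells, was at 65.0 and 165 CPM (2.54-fold, 1.75 to 3.69). In cells without a CD8 UMI the same list had 1 of 9 higher and 1 lower (0.05). Th1 genes had 6 of 7 lower in the CD8 cells (-1.18), where 18.8% of all genes were lower. In cells with a Cd4 UMI and no CD8 UMI 4 of 8 Th1 genes were lower and 1 higher (-0.60), where 11.5% of all genes were lower. Among all cells without a CD8 UMI 3 of 9 were lower and 1 higher (-0.12), where 7.38% of all genes were lower. The WT CD8 cells also carried more RNA of other lineages: 10 of 10 neutrophil granule genes (median -1.67) and 11 of 16 genes of resting microglia (-1.12) were lower in the KO ones. The part of this in the lists was not tested.

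Among the remaining T cell lists, Th17 genes had 0 of 7 past the fold (0.10), with Il17a at 14.2 and 12.02 CPM. Regulatory T cell genes had 1 of 9 higher (0.26), namely Foxp3 at 31.3 and 48.7 CPM. Activation and checkpoint genes had 5 of 13 lower and 0 higher (-0.32), led by Pdcd1, which encodes the inhibitory receptor PD-1, at 94.4 and 41.4 CPM (log2 -1.17). Chemokines had 6 of 12 lower and 2 higher (-0.59), with Ccl4 the lowest and Cxcl2 the highest (log2 -1.91 and 0.95). Of the lower ones Ccl3 had 185 of 253 WT UMIs in 1 cell and Ccl17 had 167 of 213. Without the top cells their log2 ratios were 0.46 and -0.09 in place of -1.24 and -1.45. Cell cycle genes had 0 of 18 past the fold (-0.27, but 0.21 with classes from clusters), and glycolysis genes 1 of 15 higher (0.08). MHC class II genes had 9 of 10 higher (median 1.005), with H2-Aa at 667 and 1336 CPM. They had 10 of 10 higher in the cells without a CD8 UMI (1.09). Mouse T cells hardly express these genes, and B cell markers (ratio 2.16, 0 of 9 at 0) and conventional dendritic markers (91.1 and 152 CPM, 2 of 12 at 0) were higher in the same cells. Their part was not tested.

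B-like cells (309 WT, 461 KO) had lower interferon-gamma response genes and higher type I interferon genes in KO, in a class where 5.67% of all genes were higher and 8.72% lower, with a median of -0.04. Of 16 interferon-gamma response genes 5 were lower and 0 higher, all 16 had a ratio below 1, and the median was -0.38. Socs1 was at 135 and 81.7 CPM (1.65-fold higher in WT, 1.25 to 2.17) and Gbp2 at 275 and 188 CPM. Gbp5 had 19 WT and 12 KO UMIs, a ratio of 0.383 (0.170 to 0.832).

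Type I interferon genes had 3 of 13 higher and 0 lower (median 0.47). Isg15, a ubiquitin-like antiviral protein gene, was at 38.3 and 89.9 CPM (2.35-fold, 1.57 to 3.61), Irf7 at 61.7 and 117 CPM and Oas1a at 6.17 and 17.98 CPM. MHC class II genes had 0 of 10 past the fold (-0.01). Maturation genes had 1 of 11 higher, Cd86 at 49.4 and 79.4 CPM (0.02). Ighm, the IgM heavy chain gene, was at 5276 and 3939.6 CPM, with 1027 of 4274 WT UMIs in 1 cell and a log2 ratio of -0.04 without the top cells. Ddx55, an RNA helicase gene, was at 43.2 and 15.7 CPM (2.75-fold higher in WT, 1.56 to 4.96).

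The reported targets of miR-155 had medians near those of all genes in most classes. In microglia-like cells 1 of 22 was higher and 0 lower (median 0.08), where 2.92% and 2.5% of all genes were. Monocyte/macrophage-like cells had 2 of 24 higher and 0 lower (0.06, all genes 1.61% and 0.599%), and T-like cells 1 and 1 of 24 (0.02, all genes 3.29% and 5.69%). Conventional dendritic-like cells had 3 of 21 higher and 0 lower (0.16, all genes 8.86% each way). Plasmacytoid dendritic-like cells had 6 of 19 higher and 2 lower (0.40), where 10.9% and 8.64% of all genes were, among them Socs1 with 3 WT and 26 KO UMIs, a ratio of 4.29 (1.31 to 22.1), and Cebpb at 32.9 and 67.6 CPM. Monocyte transcripts such as Lyz2 were also higher in the plasmacytoid dendritic-like cells of KO, and their part in this list was not tested. Neutrophil-like cells had 2 higher and 1 lower of 23 (all genes 7.76% and 4.25%), progenitor-like cells 3 and 1 of 22 (6.65% and 5.7%) and B-like cells 3 and 2 of 21 (5.67% and 8.72%). Fos, which is on this list, is one of the higher members in all 8 classes. The 3' untranslated region read for it, from 1 transcript, holds none of the 8-base and 7-base seed matches searched below. Shorter matches were not searched.

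The 3 targets whose sites are printed above did not move alike. Cebpb had log2 ratios above 0 in all 8 classes, from 0.10 in monocyte/macrophage-like to 1.02 in plasmacytoid dendritic-like cells. Inpp5d had ratios from -0.37 in conventional dendritic-like to 0.44 in plasmacytoid dendritic-like cells. Socs1 ran from -0.71 in B-like to 1.97 in plasmacytoid dendritic-like cells. Socs1 is also one of the interferon-gamma response genes, and in B-like cells it was lower along with the rest of that list.

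Genes were also sorted by the best seed match in the 3' untranslated region, read on the message strand only, whatever their literature. The matches searched were the 8-base AGCATTAA, the 7-base AGCATTA and the 7-base GCATTAA, each gene being counted once under the first that it holds. Of 20686 genes with such a region, 2.82% held the 8-base match, 4.94% the first 7-base match and 4.06% the second as their best, and 88.2% held none. The median log2 ratio of genes with the 8-base match was 0.03 in microglia-like, -0.02 in monocyte/macrophage-like, 0.07 in conventional dendritic-like and 0.00 in T-like cells. Genes with no match had 0.02, -0.02, -0.02 and -0.06 in the same classes. In B-like cells the values were 0.03 and -0.04. The widest gap in that direction was the one in conventional dendritic-like cells, and in progenitor-like cells the genes with the match had the lower median (0.01 against 0.04). Before rounding, they also had the lower one in monocyte/macrophage-like cells (-0.023 against -0.020).

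Genes with the 8-base match have longer 3' untranslated regions, with a median of 2630 bases against 828 in microglia-like cells. Among genes with a region of 500 to 2000 bases, the medians in conventional dendritic-like cells were 0.01 with the match and 0.01 without. They were -0.01 and -0.07 in T-like, 0.06 and -0.07 in B-like and 0.03 and -0.06 in plasmacytoid dendritic-like cells. The values were 0.03 and -0.05 in neutrophil-like, 0.04 and 0.01 in microglia-like and -0.02 and -0.03 in monocyte/macrophage-like cells. In progenitor-like cells the median with the match was again the lower one (-0.01 and 0.03). A match is a description of the sequence and not a shown target site.

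**Figure D5:**
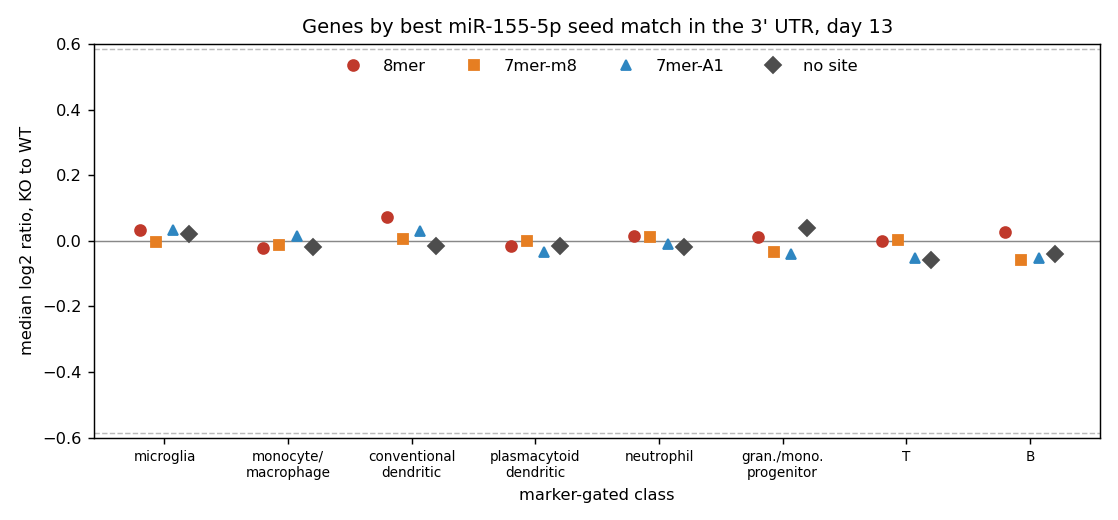
Median log2 ratio of KO to WT in each class of day 13 for genes grouped by their best miR-155 seed match in the 3' untranslated region. The medians of the groups lie close to 0 in every class, well inside the dashed lines at 1.5-fold, for example at 0.03 with the 8-base match and 0.02 without a match in microglia-like cells.

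Each class was also read in the libraries of days 0 and 21, each day within itself. The microglia-like share had a KO to WT ratio of 1.17 on day 0 and 4.72 on day 21, against 0.556 on day 13. The B-like ratios were 0.938 and 2.496, the neutrophil-like ones 0.413 and 0.836, and the T-like ones 0.813 and 0.233. Dusp1 in microglia-like cells was at 1187 and 1000 CPM on day 0 and at 134 and 175 CPM on day 21. In the other 6 classes with a day 21 value its log2 ratio was below 0 on that day, at -0.23 in conventional dendritic-like, -0.38 in monocyte/macrophage-like, -0.52 in T-like, -0.60 in B-like, -0.79 in neutrophil-like and -1.18 in progenitor-like cells. On day 0 both microglia-like values stood above the day 13 levels of 61.1 and 196 CPM. The B-like value of Dusp1 on day 21 rests on 18 KO and 16 WT UMIs. Fos did not follow Dusp1 on day 21 in every class. Its log2 ratio was 0.71 in microglia-like, 0.48 in monocyte/macrophage-like and 0.39 in progenitor-like cells. It was -0.12 in B-like, -0.16 in neutrophil-like, -0.17 in conventional dendritic-like and -0.22 in T-like cells. Gzmk in T-like cells was at 67.8 and 6.79 CPM on day 0 and at 183 and 18.2 CPM on day 21, lower in KO on all 3 days. Day and any batch that the shared number prefix of a day's titles may mark cannot be told apart.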

How the data were processed

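Count matrices of 6 droplet libraries were deposited by the authors as whole UMI counts per gene and barcode, and mm10 and Cell Ranger 2.0.2 are named in the submitters' processing notes. The limits of 200 genes and 10% mitochondrial UMIs took out 6 WT and 2 KO barcodes of day 13, all for the second. Marker genes were scaled to the 90th percentile of the cells that express them, a class score was the mean of its 4 highest, and a cell needed a score of 0.4 or more and no second class at 0.75 of it. No doublet caller was run, and barcodes of 2 classes were left out. The members, lists and markers were chosen with earlier results of these data known, and the gates were built after seeing the counts. UMIs were summed per class and library and given as CPM. Ratios have exact conditional 95% intervals, which cover counting error only, shares have exact binomial (Clopper-Pearson) intervals, and the limit for 0 is 3 counts. Marker genes of the gates were left out of the 32 gene lists. The named genes had a mean of 20 CPM or more, 30 UMIs or more and an interval wholly past 1.5-fold, with up to 6 in each direction in microglia-like, monocyte/macrophage-like, neutrophil-like and T-like cells and up to 4 in the other classes. Gate markers, unnamed gene models, ribosomal, mitochondrial, haemoglobin, immunoglobulin, receptor segment and sex-linked genes, and genes 10-fold higher in another class, were not named. List members and others were described besides. The ratio script was tested on simulated data. Seed matches were read in 1 transcript per gene of GENCODE M21, a principal one where annotated, otherwise the one with the longest 3' untranslated region. Alternatives changed the pseudocount, filters, scaling, gates and weighting of cells. Work was done in Python 3.11.15 with numpy 2.4.6, scipy 1.17.1, pandas 2.3.3, scanpy 1.11.5, igraph 0.11.9 and matplotlib 3.10.9.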

Additional observations from a re-analysis of the deposited data

Results flagged for a closer look

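For 14 of the 68 named gene and class pairs the KO to WT difference of day 13 ran the opposite way on day 21 in the same class. It was 1.5-fold or more on both days, with 1 library a genotype on each day. Plasmacytoid dendritic-like cells had no day 21 value, and the same count over all measured genes was not made. Other pairs kept their direction past 1.5-fold on both days. Among those of microglia-like cells, Fosb had log2 ratios of 1.32 and 1.47, Kdm6b 1.38 and 1.32, and Apoe -0.84 and -0.64. The difference between the days was not tested. In microglia-like cells the log2 ratio of Ccl7 was 1.40 on day 13 and -1.31 on day 21, and that of Lpl was -1.39 and 1.615. In monocyte/macrophage-like cells Cxcl2 had 1.66 and -1.42, Spp1 1.63 and -1.11, and Ccl4 1.197 and -2.38. In conventional dendritic-like cells Cxcl10 had 2.45 and -1.25, and Fez2 1.65 and -2.36, with 2 KO and 20 WT UMIs of Fez2 on day 21. In neutrophil-like cells Cxcl9 had 1.89 and -1.51, AI607873 1.78 and -1.52, Cxcl2 1.73 and -1.09, and Ly6i 1.62 and -3.03. Dusp1, higher in KO on day 13 in every class, was lower on day 21 in progenitor-like cells (1.86 and -1.18, with 16 KO and 49 WT UMIs on day 21). It was also lower in B-like cells (2.22 and -0.60), from only 18 KO and 16 WT UMIs on day 21. In neutrophil-like cells, where the naming rule did not choose it, Dusp1 had 0.65 and -0.79. No counting interval was computed for day 21, and values from few UMIs are uncertain. Spp1 in T-like cells had 2.48 and -2.62, with 58 of its 73 KO UMIs of day 13 in 1 cell, and 0 KO and 27 WT UMIs on day 21.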

How the results depend on the processing

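With 1 library a genotype no library could be left out. No paired analysis was possible because each group is a single library with no replicate number. Class shares (35 of 35 values) and T-like subset shares (21 of 21) moved by less than their intervals under the gates and depths tried, and clusters recovered no progenitor class. Of the list medians 613 of 656 values held, and of the named genes 550 of 619. Where a value below differs from that of the report, the cause was not tested, except that a pseudocount of 5 CPM shrinks the ratios of low genes and a filter changes which genes are counted. Counts are of genes higher and then lower in KO. With a pseudocount of 5 CPM they were 103 and 93 in microglia-like, 59 and 13 in monocyte/macrophage-like, 278 and 230 in progenitor-like, 146 and 242 in T-like and 204 and 349 in B-like cells, with 126 lower in neutrophil-like cells. With a mean of 50 CPM or more they were 29 and 14 in microglia-like, 13 and 2 in monocyte/macrophage-like, 109 and 68 in conventional dendritic-like, 105 and 114 in plasmacytoid dendritic-like, 67 and 27 in neutrophil-like, 50 and 42 in progenitor-like, 30 and 49 in T-like and 20 and 38 in B-like cells. With no CPM filter they were 437 and 493 in microglia-like, 486 and 194 in monocyte/macrophage-like, 705 and 499 in neutrophil-like and 427 and 735 in T-like cells. With classes from clusters, 66 were lower in monocyte/macrophage-like, 358 in conventional dendritic-like and 135 in neutrophil-like cells, and 385 higher and 675 lower in T-like cells. With a mean over cells, 67 were lower in monocyte/macrophage-like cells, and 263 higher and 376 lower in neutrophil-like cells. A stricter gate gave 233 and 331 in neutrophil-like cells, so that their excess of higher over lower genes turned round under both. Mixed barcodes given to their leading class made 841 higher in neutrophil-like and 251 lower in T-like cells, and the median of neutrophil granule genes -0.33. With classes from clusters, the median of conventional dendritic-like cell cycle genes was -0.22 and of maturation genes 0.18, and that of T-like cell cycle genes 0.21 in place of -0.27. A cluster led by cell cycle genes such as Stmn1 and Tubb5 was called mixed and belongs to no class in this setting. The following were chosen after seeing the data. By dendritic subset (Xcr1-led, Cd209a-led, Fscn1-led), cell cycle medians were 0.93 and 0.068 in the last 2, from only 3 and 2 measured genes, maturation had 0.14, 0.75 and -0.070, and interferon-gamma genes had -0.045 in the Xcr1-led and -0.018 in the Fscn1-led cells. In T-like cells with a CD8 UMI the cytotoxic median was -1.01, that of MHC class II genes 0.56 and of interferon-gamma genes -0.062. Without a CD8 UMI the cytotoxic median was 0.065, and in the cells among these with a Cd4 UMI it was -0.49. Without the top cells the log2 ratios of Gzmf and Gzmc in T-like cells were -0.14 and -0.66. Depth limits most classes: the median counting SD of a log2 ratio ran from 0.155 to 0.411, against a threshold of 0.585.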
